A study of Homo sapiens with 4 samples.

Results

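The genes described here are MYC, the long non-coding RNA gene PVT1 next to it, and the 8 genes MAX, MXD1, MXI1, MXD3, MXD4, MNT, MGA and MLX, which encode proteins of the MAX network. They were matched by symbol from a list that uses no measured value in its rule but was drawn up with earlier results of these data known. They make up 10 of the 60279 gene identifiers counted. All 10 had enough reads to be tested among 17322 genes, and all 10 have a production rate among the 11777 rates that the authors deposited. The libraries are TT-seq (transient transcriptome sequencing, in which cells take up 4-thiouridine and only RNA made during the labelling is enriched) from K562, an established line from a chronic myeloid leukaemia. Labelling lasted 5 min in 2 libraries and 15 min in the other 2. The treatment label of all 4 libraries reads UT, and the protocol names no agent besides 4-thiouridine. Each RNA sample carried a set mass of Drosophila S2 RNA, so fly reads give a scale outside the human counts.

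MYC is a basic helix-loop-helix leucine zipper transcription factor that binds DNA as a dimer with MAX, at E-boxes with the core CACGTG, and activates genes of growth and metabolism. MXD1, MXI1, MXD3, MXD4 and MNT also pair with MAX, recruit SIN3 corepressors and hold the same sites in a repressed state, while MGA joins MAX in a variant Polycomb complex. MLX is a MAX relative that pairs with the glucose-responsive factors MLXIP and MLXIPL. MYC mRNA and protein are both short-lived, and MYC is a driver of growth in leukaemia cells.

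The E-box that MYC and MAX bind was searched as the letters CACGTG, which read the same on both strands, in promoter windows of 300 bases (250 before and 50 after each RefSeq start, GRCh38.p14). Windows were on hand for 8 of the 10 genes. MYC and PVT1 had none, so their promoters were not searched. The motif was in the windows of 3 of these 8 (MXD4, MNT and MLX), and 8.77% of all 27305 genes with a window held it. The stretches around the 3 matches are shown because they carry the binding letters of the network within its own genes, with the motif in capitals. The printed MXD4 stretch is chr4:2262315-2262359, minus strand, and its motif begins 238 bases before the start. The MNT stretch is chr17:2401221-2401280, minus strand, with the motif 193 bases before the start. The MLX stretch is chr17:42567023-42567082, plus strand, with the motif 50 bases before the start. A match is a description of letters and no evidence of binding.
MXD4: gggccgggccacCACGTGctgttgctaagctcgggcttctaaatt
MNT: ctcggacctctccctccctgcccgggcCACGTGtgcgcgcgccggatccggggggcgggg
MLX: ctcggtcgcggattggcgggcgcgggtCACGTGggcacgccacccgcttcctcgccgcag

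The libraries held 4339981 to 5051370 human reads and 308978 to 897018 fly reads. Human reads per fly read were 4.84 and 5.84 after 5 min and 15.3 and 15.8 after 15 min. Mitochondrially encoded genes took 2.07% and 2.59% of human reads after 5 min and 5.93% and 6.94% after 15 min. All 13 erythroid markers listed for K562 had a mean of at least 10 CPM over the 4 libraries. For markers, CPM are reads of a gene scaled to the total human reads of its library, without TMM normalization. The summed level of these 13 markers was 2904 to 3057 CPM after 5 min and 2260 to 2306 CPM after 15 min. A large part of it came from TFRC, which is also in the list of MYC targets below. TFRC had 5933 and 6663 reads after 5 min and 5860 and 5441 after 15 min. Marker sums of T cells, B cells, monocytes and fibroblasts stayed at or below 23.0 CPM in every library, with CD8A, CD8B, MS4A1 and MARCO at 0. Epithelial markers summed to 438 to 476 CPM after 5 min and 316 to 340 CPM after 15 min. The part of these differences in the results that follow was not tested. In bulk libraries, fewer cells with a transcript and less of it per cell cannot be told apart.

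MYC was the most abundant of the 10 genes in every library, and its share of the labelled RNA was higher after 15 min than after 5 min. It had 1860 and 2060 reads after 5 min and 2697 and 2589 reads after 15 min, in replicates 1 and 2. From here on, CPM are reads of a gene scaled to the reads of its library, with TMM normalization. MYC had 444 and 461 CPM after 5 min and 520 and 532 CPM after 15 min, so the groups did not overlap. The log2 fold change in share was 0.22 ± 0.0603 (SE), with an adjusted p of 0.00158 by edgeR's quasi-likelihood test. MYC ranked 261 and 252 among the 26824 and 27022 genes with reads after 5 min, and 135 and 125 among 27872 and 27557 after 15 min. It made up 36.0% ± 0.675 (SD, n = 2) of the reads of the 10 genes after 5 min and 39.9% ± 1.12 (SD, n = 2) after 15 min. Leaving out the 15 min replicate 2 library gave 0.18 (adjusted p = 0.0626 by edgeR) and leaving out the 5 min replicate 1 library gave 0.16 (adjusted p = 0.0985), which ended the call.

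PVT1, a spliced non-coding RNA gene often amplified together with MYC and the host of several microRNAs, moved the other way. PVT1 lies at 127794533 to 128101253 on the plus strand of chromosome 8 in the GENCODE 29 annotation of hg38, starting 53.098 kb past the end of MYC, which spans 127735434 to 127741434 on the same strand. It had 475 and 532 reads after 5 min and 501 and 445 after 15 min. As shares these were 113 and 119 CPM after 5 min against 96.6 and 91.4 CPM after 15 min, with both later libraries below both earlier ones. The share fell by 0.31 on the log2 scale (SE 0.0788, edgeR adjusted p = 0.000508), and it passed without each library in turn. Scaling to total human reads without mitochondrial genes ended this call (log2 fold change -0.14, edgeR adjusted p = 0.130).

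MAX, the partner that MYC and its antagonists compete for, lies on the minus strand of chromosome 14 (65006174 to 65102695, hg38). It showed no difference in share that passed the test. Its share was 74.7 and 75.9 CPM after 5 min and 79.2 and 71.4 CPM after 15 min, and the groups overlapped. The log2 fold change was 0.00 ± 0.0896 (SE), with a 95% interval from -0.17 to 0.18 and an edgeR adjusted p of 0.991. The sign of so small a value turned under several alternatives.

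Among the MXD proteins, which antagonise MYC by taking up MAX, MXD1, MXD3 and MXD4 rose in share and MXI1 did not pass the test. MXD1, which increases as blood cells differentiate, had 135 and 128 CPM after 5 min and 151 and 147 CPM after 15 min. Its log2 fold change was 0.18 ± 0.0723 (SE, edgeR adjusted p = 0.0391). MXD3, the family member described in proliferating cells, had 27.2 and 24.2 CPM after 5 min and 38.9 and 33.3 CPM after 15 min. Its 0.49 ± 0.136 (SE, edgeR adjusted p = 0.00131) was the highest log2 fold change of the 10 genes. MXD4 had 18.9 and 19.7 CPM after 5 min and 21.4 and 28.9 CPM after 15 min, a log2 fold change of 0.38 ± 0.157 (SE, edgeR adjusted p = 0.0440). In each of these 3 genes both 15 min libraries lay above both 5 min libraries. MXI1 lay at 49.7 and 49.3 CPM after 5 min and at 48.8 and 45.6 CPM after 15 min. The later libraries were lower without overlap, by a log2 fold change of -0.07 with a 95% interval from -0.28 to 0.15 (edgeR adjusted p = 0.671).

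The calls of these 3 repressor genes did not hold in every fit on 3 libraries. MXD4 had 79 and 88 reads after 5 min and 111 and 141 after 15 min. Without the 15 min replicate 2 library its log2 fold change was 0.13 (edgeR adjusted p = 0.691), and without replicate 1 or 2 of the 5 min libraries the adjusted p was 0.206 and 0.120. MXD1, with 567 to 783 reads per library, failed the test whichever library was left out, at edgeR adjusted p values of 0.0984 to 0.318. MXD3 failed without the 15 min replicate 1 library (log2 fold change 0.36, edgeR adjusted p = 0.114) and without the 5 min replicate 2 library (0.40, adjusted p = 0.0556). On hg38, MXD1 lies on chromosome 2 (69897688 to 69942945, plus strand), MXI1 on chromosome 10 (110207605 to 110287365, plus), MXD3 on chromosome 5 (177301461 to 177312757, minus) and MXD4 on chromosome 4 (2247432 to 2262294, minus). In MXD3, 40.4% of the exonic bases are shared with RAB24 on the same strand or PRELID1 on the opposite strand, so reads there are uncertain.

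MNT and MGA, the large MAX partners, differed in direction. MNT, a repressor present in most cell types, had 53.2 and 51.7 CPM after 5 min and 66.5 and 61.4 CPM after 15 min, a rise of 0.29 ± 0.101 (SE, log2, edgeR adjusted p = 0.0145). MGA, a scaffold of the variant Polycomb complex PRC1.6, had 262 and 264 CPM after 5 min and 222 and 210 CPM after 15 min. Its share fell by 0.28 on the log2 scale (SE 0.0640, edgeR adjusted p = 5.5e-05), and without each library in turn the test was still passed. Neither gene's groups overlapped. MNT failed without the 15 min replicate 1 library (0.22, edgeR adjusted p = 0.211), the 5 min replicate 1 library (0.28, 0.0738) or the 5 min replicate 2 library (0.25, 0.124). For MGA, scaling to total reads without mitochondrial genes gave -0.12 (edgeR adjusted p = 0.110). MNT lies on the minus strand of chromosome 17 (2384060 to 2401118), where an antisense gene shares 12.2% of its exonic bases, and MGA on the plus strand of chromosome 15 (41621224 to 41773081).

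MLX, the MAX-like partner of the glucose-responsive branch, had 70.4 and 70.3 CPM after 5 min and 83.8 and 84.6 CPM after 15 min. The 2 libraries of each time lay close together and the times did not overlap. Its log2 fold change was 0.26 ± 0.0889 (SE, edgeR adjusted p = 0.0121), yet no fit on 3 libraries passed (adjusted p of 0.0708 to 0.0965). MLX lies on the plus strand of chromosome 17 (42567068 to 42573239) and shares 18.1% of its exonic bases with PSMC3IP on the opposite strand.

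In all, 6 of the 10 genes rose in share, 2 fell and 2 passed in neither direction. Among all tested genes 16.8% rose and 21.3% fell, together 38.1%, and over the 11547 tested protein-coding genes 13.7% rose and 30.5% fell. The median log2 fold change was 0.20 over the 10 genes and 0.03 over all tested genes, with quartiles of -0.28 and 0.36. Over the protein-coding genes, which include 9 of the 10, the median was -0.085. Counted by overlap, both 15 min libraries lay above both 5 min libraries for 6 of the 10 genes and below for 3, while the same held for 34.6% and 33% of all tested genes. With DESeq2 in place of edgeR, MYC was the 1 member that passed as higher and PVT1 and MGA both passed as lower (adjusted p of 0.0412, 0.0431 and 0.0096). Scaling to total human reads moved the median of all genes to 0.13, and doing so without mitochondrial genes moved it to 0.19. The split of all passing genes went from 44.1% higher to 60.1% and 68.8% higher. A scaling moves every gene by about the same amount, so the values relative to the median of all genes do not depend on it by construction. They were 0.19 for MYC, -0.34 for PVT1 and -0.31 for MGA.

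**Figure D1:**
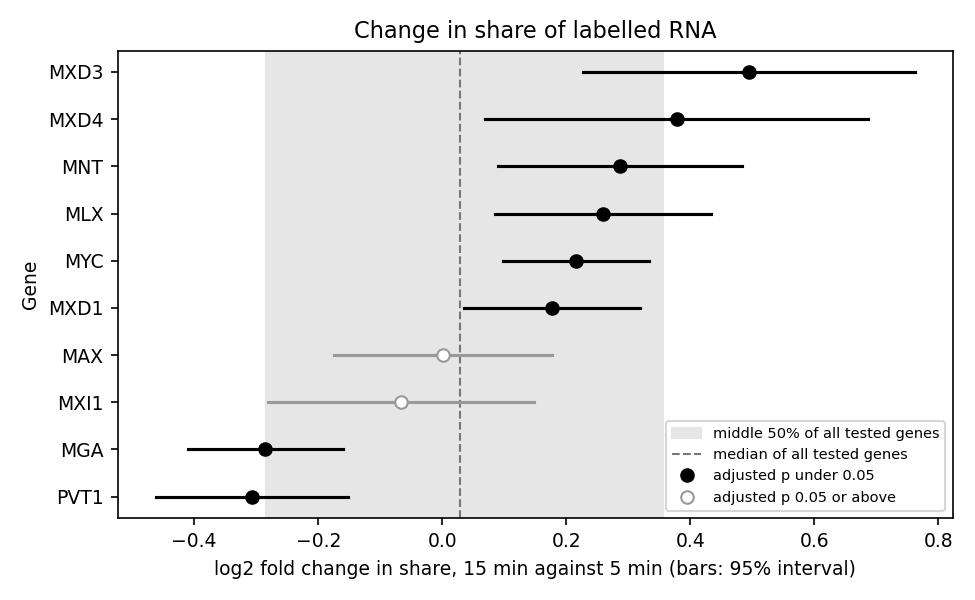
Log2 fold change in share of labelled RNA, 15 min against 5 min (x axis), for each of the 10 genes (y axis), with bars for the 95% interval of edgeR's fit to 2 libraries per time. The band is the middle 50% of all tested genes and the dashed line their median; MXD3 lies farthest to the right at 0.49 and PVT1 farthest to the left at -0.31.

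On the scale of the fly reads all 10 genes were higher after 15 min, as were 98.4% of all tested genes, while 0.0115% were lower. MYC gave 2.07 and 2.56 reads per 1000 fly reads after 5 min and 8.46 and 8.38 after 15 min, a fitted fold of 3.63 with a 95% interval of 2.86 to 4.61. PVT1 gave 0.530 and 0.662 reads per 1000 fly reads after 5 min and 1.57 and 1.44 after 15 min, a fold of 2.53 with an interval of 2.01 to 3.18. No gene of the 10 had overlapping groups on this scale. The same count over all tested genes was not made, and with 98.4% of them called higher it sets the 10 genes apart in no way. MXD3 had the highest fold, 4.43 (interval 3.40 to 5.78), followed by MXD4 at 4.08, MNT at 3.83 and MLX at 3.75. MXD1 stood at 3.55, MAX at 3.14, MXI1 at 2.995 and MGA at 2.57.

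The label times differ by a ratio of 3, and 7 of the 10 genes had a fold above it, as did 58.1% of all tested genes. The 95% interval covered 3 for 7 of the 10 genes and lay above it for MXD3, MXD4 (from 3.07) and MNT (from 3.01). The limit of MNT is close to 3. With TMM factors over fly genes its log2 fold change was 1.91 in place of 1.94. Intervals of the alternatives were not compared with 3. The median fold was 3.59 over the 10 genes and 3.20 over all tested genes. Every fold on this scale uses the same 4 fly totals, so an error in a total would move all genes together. Each of the 10 passed at an adjusted p of 0.000111 or lower in edgeR or DESeq2 under every alternative run, those without 1 library included.

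**Figure D2:**
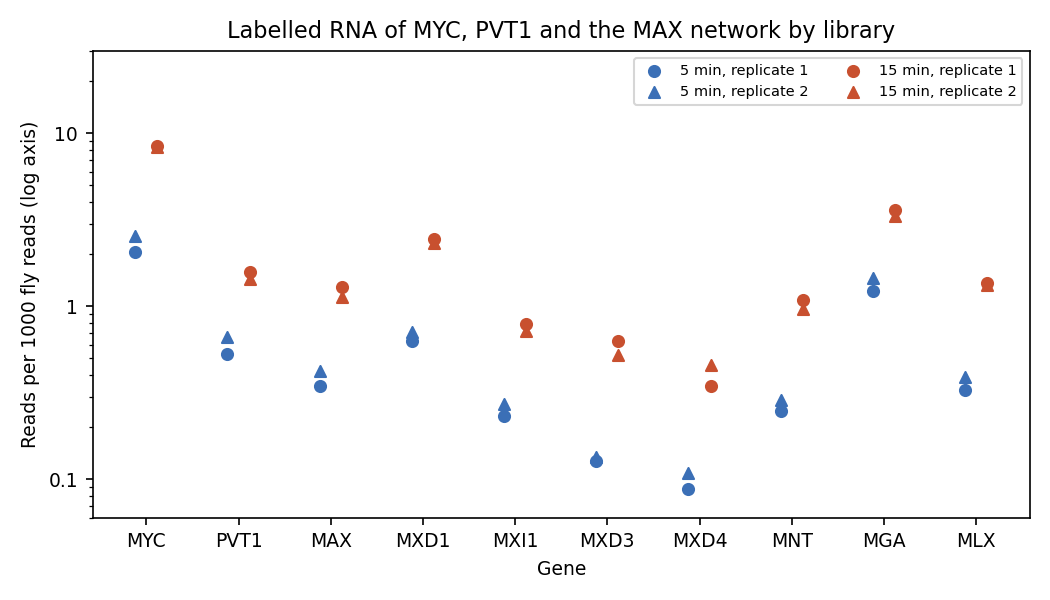
Reads per 1000 fly reads in each of the 4 libraries (log y axis) for each of the 10 genes (x axis), with a point per library. Both 15 min libraries lie above both 5 min libraries in all 10 genes, and MYC is highest at 2.07 to 8.46. Of all tested genes 98.4% were called higher on this scale by edgeR.

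Set against MYC within each library, which needs neither scale, 4 of the 9 other genes were lower after 15 min in both libraries, 2 were higher and 3 overlapped. PVT1 had 255 and 258 reads per 1000 MYC reads after 5 min and 186 and 172 after 15 min, a ratio of 0.696 between times. MGA had 590 and 572 after 5 min and 426 and 395 after 15 min, a ratio of 0.707. Both ratios lay outside the spread between libraries, and every pair of a 15 min and a 5 min library put PVT1 between 0.666 and 0.727. MXI1 followed at 0.821 and MAX at 0.862, again without overlap. Higher without overlap were MXD3 at 1.21 and MLX at 1.03, while MXD1 (0.972), MNT (1.05) and MXD4 (1.12) overlapped. Library pairs put MXD3 between 1.02 and 1.43 and MLX between 1.003 and 1.058, so the difference of MLX was small. Over all tested genes 48.7% were lower and 18.9% higher per MYC read in the same sense, so the counts of 4 and 2 set the 9 genes apart in no way. With 2 libraries against 2 an exact two-sided permutation test cannot go below p = 0.333, the value for the 6 genes that did not overlap (0.5 after Benjamini-Hochberg adjustment over the 9 ratios).

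**Figure D3:**
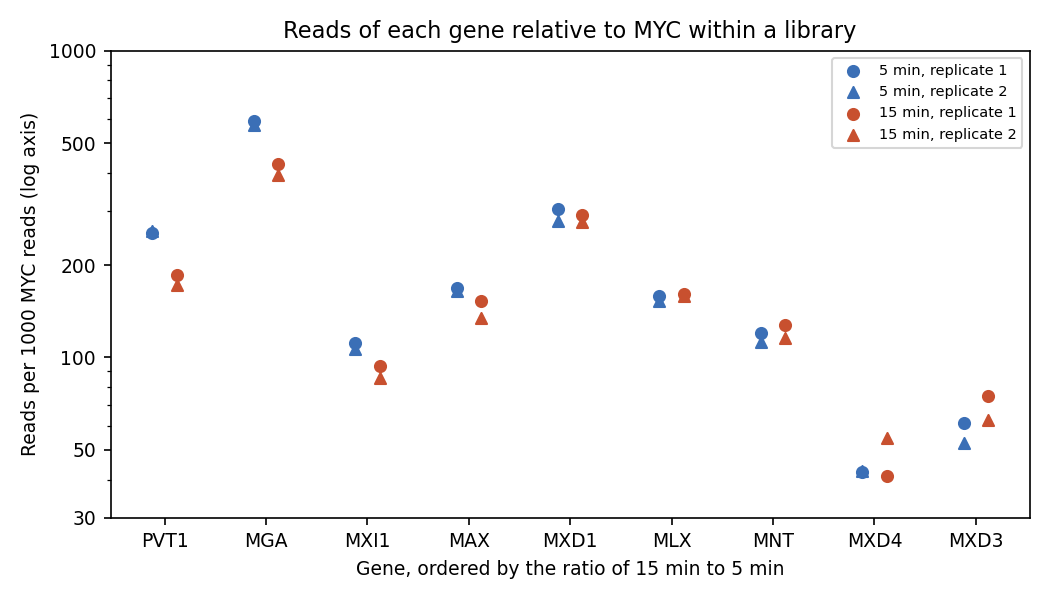
Reads per 1000 MYC reads in each library (log y axis) for the 9 other genes (x axis), with a point per library. PVT1 and MGA sit lower in the 15 min libraries, at 186 and 172 against 255 and 258 for PVT1. The points of MXD1, MNT and MXD4 overlap between times. Of all tested genes 48.7% were lower and 18.9% higher per MYC read without overlap.

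Per kilobase of exon, MYC stood far above its network. The level of MYC was 151 ± 4.02 CPM per exonic kb (SD, n = 2) after 5 min and 175 ± 2.76 after 15 min. After 5 min the next were PVT1 at 21.2 ± 0.732 and MXD1 at 20.8 ± 0.791, which overlapped, then MAX at 17.0 ± 0.185, MLX at 16.5 ± 0.0231 and MGA at 14.9 ± 0.0625. After 15 min MXD1 (23.5 ± 0.437) and MLX (19.8 ± 0.123) came before PVT1 (17.1 ± 0.670) and MAX (17.0 ± 1.24), and the last pair overlapped. MXI1, MNT, MXD3 and MXD4 held the lowest levels at both times, down to 2.73 ± 0.0840 for MXD4 after 5 min. Within that group MNT and MXD3 overlapped after 15 min. Reads per kilobase depend on the length used, and PVT1, with 1.79% of its span in exons, was last of the 10 when the whole span was used (0.343 CPM per kb). The reads may have been counted on exons only. A level per whole span would then be too low for genes with long introns.

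The order of the deposited production rates was close to that of the levels. MYC had a rate of 0.370, rank 81 of 11777, and the table gives the rate no unit and no replicate error. MLX (0.0382), MXD1 (0.0367) and PVT1 (0.0264) came next, all above the median rate of 0.0114, as were MXI1 (0.0176), MGA (0.0168) and MNT (0.0133). MAX (0.00793), MXD3 (0.00641) and MXD4 (0.00620) were below that median. The rate of MAX was 2.15% of that of MYC. Across 10737 genes the rate and the level per exonic kb had a Spearman correlation of 0.894, and over the 10 genes it was 0.879. Points share libraries, so these are descriptions. The rates come from the same deposit and their libraries are not named. They may rest on these same reads, so the correlations are no independent check. MAX lay low against that relation, its rate divided by its level standing at the 4.88 percentile of those genes, against 82.6 for MYC.

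**Figure D4:**
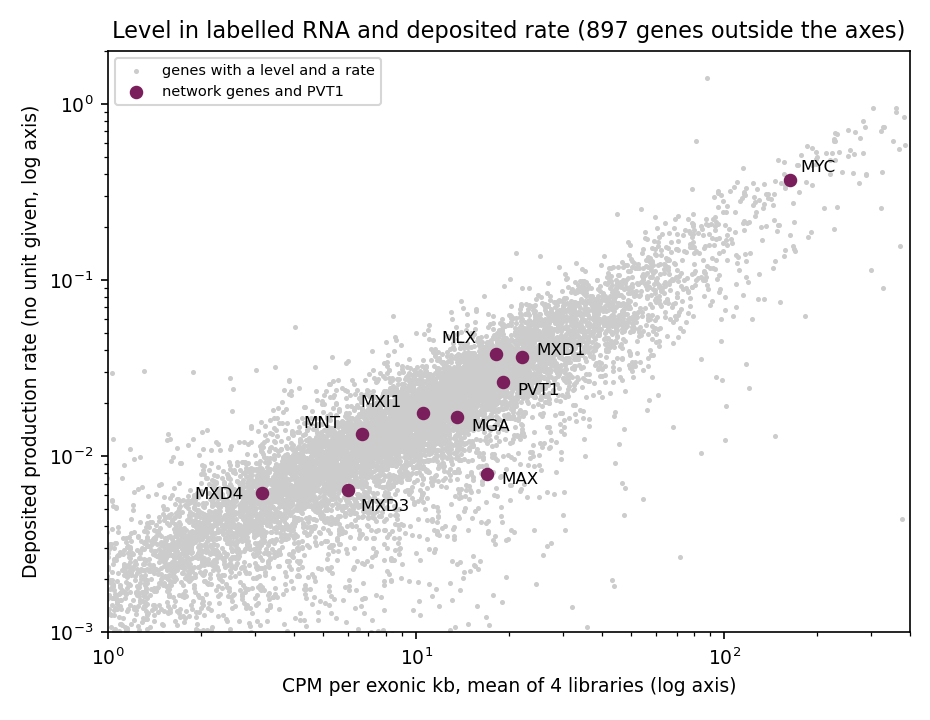
Deposited production rate (y axis, no unit given, log axis) against the mean CPM per exonic kb of the 4 libraries (x axis, log axis), with grey points for genes that have both and coloured points for the 10 genes; 897 genes lie outside the axes. MYC is at the upper right with a rate of 0.370, and MAX lies below the cloud's centre at 0.00793.

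Direction of change in share followed the length of the locus among the 10 genes. The 6 that rose span 6.001 kb (MYC) to 45.258 kb (MXD1), and the other 4 span 79.761 kb (MXI1) to 306.721 kb (PVT1). The Spearman correlation of span with the log2 fold change was -0.79 over the 10 genes and -0.34 over 17101 tested genes, and -0.17 over protein-coding genes. Among protein-coding genes under 20 kb, 21.1% rose and 24.2% fell. Among those over 100 kb, 5.67% rose and 34.7% fell. Exonic length gave a correlation of -0.04 over the 10 genes. These are descriptions across genes, which are not independent replicates, and the part of locus length in the changes of single genes was not tested.

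**Figure D5:**
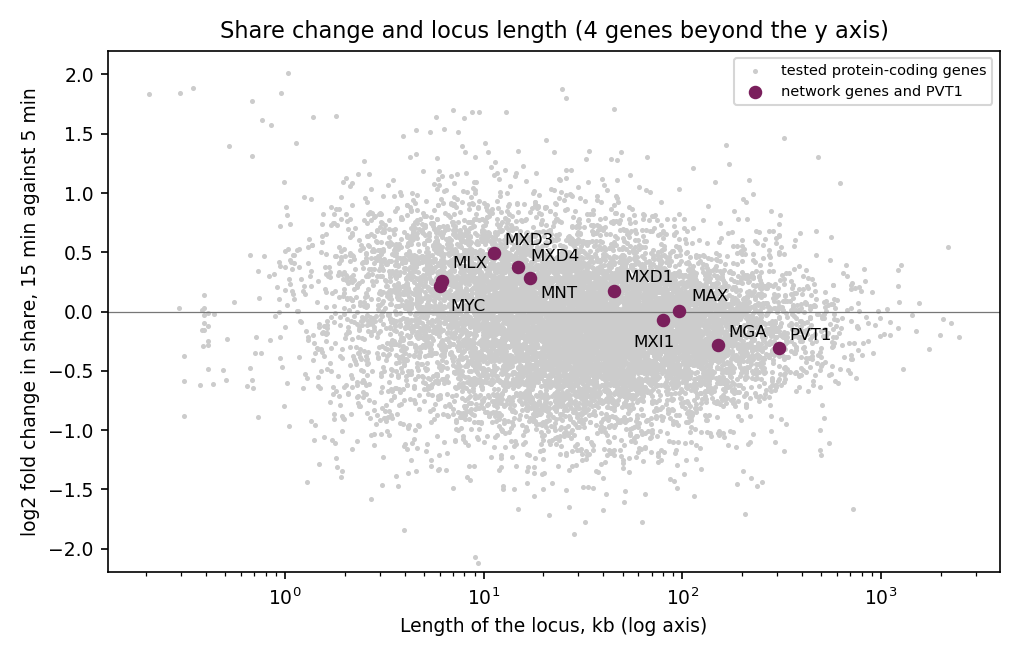
Log2 fold change in share (y axis) against the length of the locus in kb (x axis, log axis) for tested protein-coding genes (grey) and the 10 genes (coloured); 4 protein-coding genes lie beyond the y axis. The 6 genes under 50 kb lie above 0, and PVT1 and MGA, both over 100 kb, lie below it.

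Genes that work with the network were read from lists chosen with earlier results of these data known, so their counts are descriptions. Of 17 cofactors of MYC 1 rose and 10 fell, with a median log2 fold change of -0.28, against -0.085 over protein-coding genes. CDK9, the kinase that releases paused RNA polymerase II, rose by 0.42, while HCFC1 fell by 0.72, RUVBL2 by 0.97 and the scaffold TRRAP by 0.28. Of 18 genes of MYC protein turnover 2 rose and 9 fell, with the ubiquitin ligase HUWE1 at -0.78 and the deubiquitinase USP36 at 0.21. Of 12 binders of MYC mRNA 2 rose and 8 fell. IGF2BP1, which stabilises MYC mRNA, stood at -0.48, YBX1 at -1.16 and RBM15 at 0.45. HNRNPD, which binds AU-rich elements, stood at -0.23, and SET of the turnover list, an inhibitor of a phosphatase that acts on MYC, at -0.53. The share of falling genes was 58.8%, 50% and 66.7% in these 3 lists, against 30.5% of protein-coding genes. Calls also depend on read depth. In the turnover list the SE was 0.0604 for SET, at 735 CPM, and 0.163 for STUB1, at 20.7 CPM. Neither these lists nor those below were matched to protein-coding genes in depth, so the percentages are not like for like.

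Of 12 partners of MGA in PRC1.6, 0 rose and 4 fell by edgeR, TFDP1 by 0.48 and the chromatin reader CBX3 by 0.29 among them, while RYBP was at 0.09 (adjusted p = 0.301). The 33.3% that fell is close to the 30.5% of protein-coding genes. Of 18 SIN3 and HDAC corepressor genes, through which the MXD proteins act, 1 rose (ING2, 0.51) and 8 fell, HDAC2 and RBBP4 both at -0.48. That is 5.56% higher and 44.4% lower, against 13.7% and 30.5% of protein-coding genes. Of 36 known MYC targets 4 rose and 23 fell, with the glycolytic enzymes LDHA at -0.96 and ENO1 at -0.87, the transferrin receptor TFRC at -0.37 and the translation factor EIF4A1 at 1.02. The median of the targets was -0.34, against -0.085 over protein-coding genes, and 63.9% of them fell against 30.5%.

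The list of MYC and MLX branch relatives held 6 genes, among them TXNIP and ARRDC4, which are not members of either branch. By edgeR, of 5 tested 3 rose (TXNIP, ARRDC4 and MYCL) and 0 fell, where 13.7% of protein-coding genes rose and 30.5% fell. TXNIP, a target of the MLX partners that limits glucose uptake, was at 1638 ± 91.4 CPM after 5 min and 2024 ± 58.7 CPM after 15 min (SD, n = 2), a log2 fold change of 0.31. MYCL rose by 0.56 and ARRDC4, a relative of TXNIP, by 0.28. MLXIP, the glucose-responsive partner known as MondoA, stood at 0.00 (adjusted p = 0.974 by edgeR), and MLXIPL at 0.04 (adjusted p = 0.902). MYCN had 0 reads in all 4 libraries, which allows up to 0.594 to 0.691 CPM in a library, here without TMM normalization.

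Of the neighbours of MYC and PVT1 on the chromosome, 7 of 16 had enough reads to be tested, 2 rose and 2 fell, which is 28.6% each way against 16.8% and 21.3% of all tested genes. TRIB1, a pseudokinase that promotes protein degradation, rose by 0.52 and the sterol enzyme SQLE fell by 0.69, while ASAP1 stood at -0.13 (edgeR adjusted p = 0.228). The non-coding genes CASC11, CASC8, CASC19 and PCAT1 had at most 4 reads in any library.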

How the data were processed

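TT-seq was done on 4 libraries of K562 cells, 2 per label time, as grouped by GEO's labels. For every library the deposited tables hold raw counts of reads for human genes and for fly genes, without normalization by the authors. The authors' production rate, 1 value per gene, was treated as a score, because the deposited table names a synthesis rate and gives no unit. STAR 2.7, featureCounts, Subread 2.0.1, bcl2fastq 2.17.1.14 and edgeR are named, with builds hg38 and dm6, per the submitters' processing notes. Which feature was counted, and with what strand setting, is not stated in these sources. Among genes within introns of another gene that had at least 1000 reads, 92.6% of 692 on the same strand and 93.5% of 1072 on the opposite strand had reads. Of genes wholly inside 1 exon of another gene, 8.14% of 172 on the same strand and 3.94% of 431 on the opposite strand had reads. Counts of overlapping and antisense genes are therefore uncertain. Nested genes in introns had reads far more often than those in exons, the pattern of counting on exons, but the setting is not stated.

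Symbols, positions and exonic lengths came from GENCODE 29, which held 56590 of the 60279 identifiers. Share was tested with edgeR 4.0.16 in R 4.3.3 (filterByExpr with a minimum count of 10, TMM, robust quasi-likelihood fit, label time as the only term). The fly scale used the fly read totals as library sizes. P-values were two-sided, adjusted by Benjamini-Hochberg over all 17322 tested genes and read at 0.05. The fit for share was tested on simulated data. DESeq2 1.42.0, other scalings, no filter on low counts, a replicate block and fits without each library were alternatives. One further normalization, TMM before the filter, and a length without shared bases were chosen after seeing the data.

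The members and lists were chosen with earlier results of these data known. Genes named were the 10 members; in each list the 2 with the highest mean CPM and, among those passing, the 1 with the smallest p in each direction; and the 3 most like MYC or PVT1, of which 1 is not reported here. MYCL, ARRDC4, MLXIPL, MYCN, CASC11, CASC8, CASC19, PCAT1, TMEM75, MIR1207 and the overlapping genes were named outside that rule, after their values were seen. The labels do not say that libraries came from separate cultures, so p-values measure the spread between libraries, which may be technical. Libraries of a time differed by more than counting noise (chi-square per degree of freedom 1.78 and 1.62). Counting limits cover counting error only, as no molecular identifiers are given. Per-sample columns not used numbered 0.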

Additional observations from a re-analysis of the deposited data

How the results depend on the processing

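On the fly scale all 10 genes kept their direction and passed under every alternative run. The genes lower on that scale, 2 by edgeR, were 0 with DESeq2 and 0 to 1 without a library. In share, 2915 genes were higher and 3692 lower. Scaling to total reads without mitochondrial genes gave 5169 and 2349, DESeq2 gave 923 and 2370, and fits without a library gave 1729 to 2149 higher. Of the 10 genes, 6 were higher by edgeR as reported, 4 with TMM before the filter or with no filter, 1 with DESeq2 and 1 to 2 without a library. The calls of MXD1 (edgeR adjusted p = 0.0599 and 0.0875) and MXD4 (0.0535 and 0.0795) were lost with TMM before the filter and with no filter. The 2 lower were 0 when scaled without mitochondrial genes. The sign of MAX turned to -0.0120 with TMM before the filter, -0.0106 with DESeq2, -0.00706 with no filter and -0.000200 with the replicate block, and ranged from -0.0860 to 0.0511 without a library. The sign of MXI1 turned to 0.0358 and 0.0979 under total scaling with and without mitochondrial genes. Relative to the median of all genes, MXI1 was at -0.0964 as reported and at -0.0962 and -0.0959 under these scalings. Why the sign of MAX turned was not tested. With the replicate block 3080 genes were higher and 3878 lower, and the calls of the 10 genes were those of the unblocked fit. Same-numbered libraries had deviations that correlated at 0.122 over 6929 genes, and the labels say no more than the number. Per kb of whole span the levels were 81.5 CPM for MYC, 12.5 for MLX, 3.41 for MNT, 3.10 for MXD1, 2.74 for MXD3, 1.58 for MGA, 1.50 for MXD4, 0.780 for MAX, 0.606 for MXI1 and 0.343 for PVT1. Per kb of exon shared with no other gene they were 22.2 for MLX, 17.7 for MAX, 10.98 for MXI1, 10.1 for MXD3 and 7.60 for MNT. The lowest count of a member was 79 reads, for MXD4.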

Other observations

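TMEM75, annotated inside an intron of PVT1 on the opposite strand, rose in share while PVT1 fell. It had 47 and 57 reads after 5 min and 95 and 80 after 15 min, a log2 fold change of 0.53 ± 0.189 (SE, edgeR adjusted p = 0.0159). Per 1000 PVT1 reads TMEM75 gave 98.9 and 107 after 5 min and 190 and 180 after 15 min, and the groups did not overlap (exact two-sided permutation p = 0.333, the smallest that 2 against 2 allows). MIR1207, a microRNA gene within PVT1, had a log2 fold change of 0.75 that did not pass (edgeR adjusted p = 0.0853). Genes within introns of a gene with at least 1000 reads had reads about as often on the opposite strand (93.5%) as on the same strand (92.6%). Reads counted to TMEM75 and MIR1207 therefore cannot be told apart from intronic RNA of PVT1.

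By distance between centred log2(CPM + 1) values over the 4 libraries, among 5152 genes with at least 50 CPM, HIVEP1 (0.00877) and DBNL (0.0180) were among the 3 nearest to MYC. SAP18 (0.00804), DCTN5 (0.0167) and BTBD1 (0.0228) lay nearest to PVT1. Within a distance of 0.1 there were 194 genes for MYC and 273 for PVT1, so nearness over 4 libraries is common.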
